A study of Manihot esculenta with 9 samples.

Results

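The genes described here encode major latex protein-like (MLP-like), polyketide cyclase-type and pathogenesis-related (PR) proteins of cassava leaves. They were taken by description: every gene whose deposited description names an MLP-like protein, a polyketide cyclase, a pathogenesis-related protein, a chitinase, an osmotin, a thaumatin, a beta-1,3-glucanase or a CAP (cysteine-rich secretory) protein. The rule found 170 of the 33033 genes in the table, and it used no measured value. By description, 47 were MLP-like genes, 36 were chitinases, 36 were thaumatin-like or osmotin genes, 21 were other polyketide cyclase genes, 18 were CAP or PR-1 genes, 9 were other pathogenesis-related genes and 3 were beta-1,3-glucanases.

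Leaf RNA was sequenced from wild-type cassava (WT) and from transgenic lines named HOE1 and HOE8, which carry the overexpressed linker histone gene MeH1.2. Linker histones bind the DNA that enters and leaves the nucleosome. Each of the 3 groups had 3 libraries. All plants were seedlings 2 months old, grown from stem cuttings on a sterile medium, with no treatment, so WT and transgenic plants shared the culture conditions. HOE8 is called line 8 in the sample titles and line 2 in the genotype label. The labels give neither the promoter that drives MeH1.2 nor whether a line is a single clone, and they do not say whether the libraries of a group came from separate plants. The p-values therefore reflect only how far the sequenced libraries of a group differ, and that spread may be technical.

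Pathogenesis-related proteins are a set of unrelated families that plants accumulate on infection, many of them secreted. Beta-1,3-glucanases and chitinases cut polymers of fungal cell walls, osmotins and other thaumatin-like proteins can make fungal membranes leaky, and PR-1 proteins, of the CAP superfamily, bind sterols. In Arabidopsis, PR-1, the PR-2 glucanases and the PR-5 thaumatin-like proteins respond to salicylate, and basic chitinase and PR-4 to ethylene and jasmonate. MLP-like proteins were first found in poppy latex and share with the PR-10 proteins and the polyketide cyclase group a fold with a deep pocket for small ligands. In Arabidopsis the abscisic acid receptors belong to the same superfamily.

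Library totals lay between 13272047 and 16378389 counts, so that 3 counts corresponded to 0.176 to 0.233 CPM, counts scaled to a common library total. Several genes best match the Arabidopsis linker histone H1.2, and the files do not say which is MeH1.2. Of these, Manes.08G136300 was read at 149 ± 7.95 CPM in WT (SD, n = 3) and at 3345 ± 261 CPM in HOE8; log2 fold changes against WT were 4.96 for HOE1 and 4.49 for HOE8. HOE8 library 1 stood apart: its median chi-square per gene against the other HOE8 libraries was 1.83 and 2.03, where every other pair within a group gave 0.649 to 0.843 and sampling noise alone gives 0.455. Among markers, the 8 mesophyll genes, all with reads, summed to 2386 to 2604 CPM in WT, 7169 to 7479 in HOE1 and 24188 to 26529 in HOE8. The rubisco activase match Manes.10G027600 alone averaged 14761 CPM in HOE8. Of the 7 tested with edgeR, 4 were higher and 1 lower in HOE1, and 5 higher and 1 lower in HOE8 (adjusted p under 0.05). Over all tested genes 31.7% were higher and 32.7% lower in HOE1, and 33.7% and 38.2% in HOE8. The 20 senescing-leaf genes, 8 of them without a read, summed to 1268 to 1291, 424 to 425 and 359 to 374 CPM. Only 5 of these could be tested and 15 could not: 1 was higher and 4 lower in each line. The single root marker had no reads. The SAG12 match Manes.16G038400, a protease of senescing leaves, averaged 506 ± 8.09 CPM in WT, 38.2 ± 3.28 in HOE1 and 0.277 ± 0.0879 in HOE8. Summed ranges also did not overlap between the groups for shoot meristem, xylem, phloem, epidermis and guard cell genes. A single gene can carry such a sum: in WT Manes.18G099400 held 79% of the phloem sum. That sum was lower in HOE8 than in WT, though 5 of 9 tested phloem genes were called higher there and 2 lower. The part of leaf age or cell makeup in the results was not tested.

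Of the 170 genes, 32 had no read in any library and 79 stayed below 1 CPM in every library. After the filter on low counts 90 could be tested and 80 could not. Among the CAP or PR-1 genes 10 of 18 had no reads, and among the MLP-like genes 10 of 47, whereas 2 of 36 chitinases and 0 of 3 beta-1,3-glucanases were silent. The 4 genes described as pathogenesis-related gene 1, the salicylate marker of Arabidopsis, had no read in any of the 9 libraries. At the other end, 19 members reached a mean of 100 CPM in at least 1 group.

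Against WT, HOE1 had 37 members higher and 32 lower of the 90 tested, where 64.4% of all tested genes were called, 31.7% higher and 32.7% lower (edgeR quasi-likelihood test, Benjamini-Hochberg adjusted p under 0.05). HOE8 had 42 higher and 32 lower, where 71.9% of all tested genes were called, 33.7% higher and 38.2% lower. HOE8 against HOE1 gave 39 higher and 29 lower, where 66.5% of all tested genes were called, 32.7% higher and 33.8% lower. Most tested genes were thus called in each comparison, and the tested members' shares of calls were 76.7%, 82.2% and 75.6%.

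At 2-fold or more, 22 members were higher and 22 lower in HOE1, where 8.5% and 10.8% of all tested genes were. In HOE8 the counts were 34 and 27, where the shares of all tested genes were 15.3% and 16.6%. Between the lines, HOE8 had 17 members at least 2-fold higher and 19 at least 2-fold lower than HOE1, where the shares were 13% and 12.7%. Median log2 fold changes of the members were 0.14, 0.31 and 0.18 in the order of these comparisons, and -0.00, -0.05 and -0.01 over all tested genes. In both lines 29 members rose, where 18.9% of all tested genes did, and 27 fell, where 22% did; both lines were compared with the same WT libraries.

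The summed reads of the families differed in direction and in size. Summed over each family, reads of thaumatin-like and osmotin genes went from 1645 ± 57.1 CPM in WT to 333 ± 7.07 in HOE1 and 412 ± 18 in HOE8 (SD, n = 3). Chitinases went from 908 ± 7.58 to 537 ± 14.4 and 603 ± 60.6 CPM, and beta-1,3-glucanases from 128 ± 4.01 to 18.2 ± 1.61 and 7.96 ± 1.43 CPM. The MLP-like sum was 647 ± 13.2, 917 ± 27.7 and 1011 ± 134 CPM, and the other polyketide cyclase sum 636 ± 8.04, 1122 ± 4.12 and 1359 ± 57.5 CPM. The first 3 sums were lower in every transgenic library than in every WT library, and the last 2 were higher. A few genes carried these sums: in WT the most read gene held 99.4% of the glucanase sum, and the 2 most read genes held 67.4% of the thaumatin or osmotin sum, 49% of the chitinase sum and 60.1% of the MLP-like sum. By member, the thaumatin or osmotin median in HOE8 was above 0, at 0.45 on the log2 scale. HOE8 library 1 held the highest MLP-like sum, 1162 CPM, against 962 and 908 CPM in the other HOE8 libraries. In leaf tissue read in bulk, fewer cells of a type and less RNA per cell cannot be told apart.

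**Figure D1:**
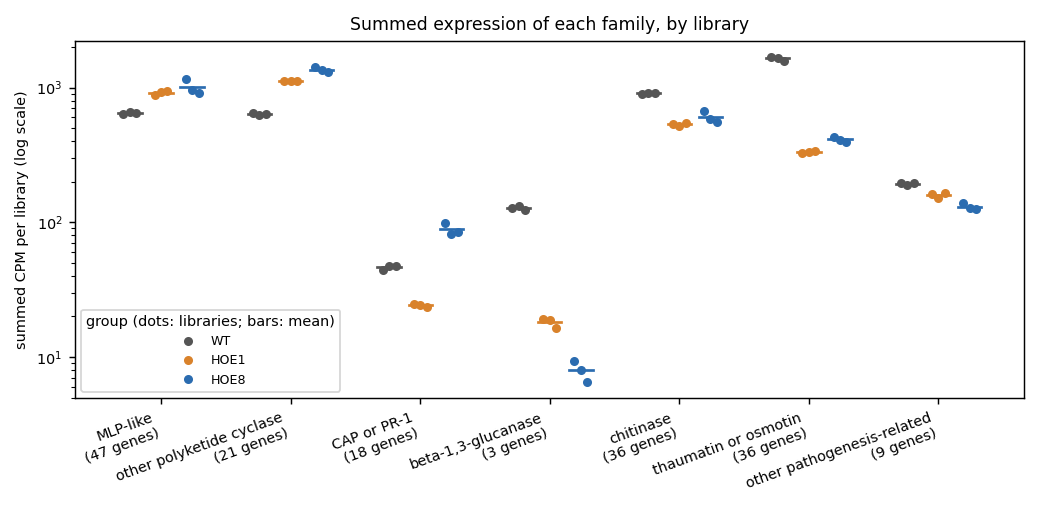
Summed CPM of each family (log axis) in every library of WT, HOE1 and HOE8; dots are libraries and bars are group means. Thaumatin or osmotin, chitinase and glucanase dots lie lower in both lines, from 1645 CPM in WT to 333 and 412 CPM for the first, while MLP-like and other polyketide cyclase dots lie higher, and the CAP or PR-1 sum is lower in HOE1 and higher in HOE8.

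Osmotins, PR-5 proteins named for their accumulation in salt-adapted cells, held the most abundant member per length in WT. Manes.02G025200, described as osmotin 34 (chromosome 2, 1992285 to 1993163; the build is not given in the sources used here), stood at 820 ± 39.2 FPKM (fragments scaled to gene length and library total) in WT, the 28th highest of all genes. Its libraries held 718, 701 and 657 CPM in WT, 37.6, 36.1 and 38.7 in HOE1 libraries and 7.64, 5.27 and 5.06 in HOE8 libraries. The 3 groups fell into separate steps, WT highest and HOE8 lowest. Against WT the log2 fold change was -4.21 ± 0.12 (SE) for HOE1 (adjusted p = 5.5e-10 by edgeR) and -6.85 ± 0.14 for HOE8 (adjusted p = 1e-11), and between the lines it was -2.64 ± 0.12 (adjusted p = 9.9e-09).

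A second osmotin 34 gene, Manes.01G064200, was at 454 ± 13.3 FPKM in WT. It was read at 424, 424 and 404 CPM in WT, against 90.4, 95.2 and 92.7 in HOE1 and 119, 102.6 and 101.8 in HOE8. Both lines lay far below WT and HOE8 slightly above HOE1: the log2 fold changes were -2.17 ± 0.07 (edgeR adjusted p = 9.1e-10), -1.95 ± 0.07 (adjusted p = 5e-10) and 0.22 ± 0.07 (adjusted p = 0.012). Its neighbour Manes.01G064300 fell as well, by 2.25 and 2.65 on the log2 scale. The 7 osmotin 34 genes summed to 1151, 1136 and 1070 CPM in WT, 130, 134 and 133 in HOE1 libraries and 127, 110 and 109 in HOE8 libraries.

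The thaumatin-like genes proper went in both directions. Manes.18G012700 held 243, 243 and 225 CPM in WT, against 45.7, 45.2 and 48.3 in HOE1 and 17.9, 17.1 and 18 in HOE8, and its log2 fold changes were -2.35 ± 0.06 and -3.75 ± 0.06 (edgeR adjusted p = 2e-10 and 2.8e-12). Manes.05G146200, with the same best Arabidopsis match, held 111, 112 and 113, then 20.1, 17.4 and 18.6, then 3.55, 3.88 and 3.89 CPM. Its log2 fold changes were -2.58 ± 0.06 and -4.89 ± 0.08 (adjusted p = 2.4e-10 and 2.4e-12). These genes showed the same 3 steps as the leading osmotin, with no overlap between groups.

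Other thaumatin-like genes, low in WT, were high in HOE8. Manes.14G170800 was read at 1.03, 2.13 and 1.29 CPM in WT, 0.565, 1.51 and 0.905 in HOE1 libraries and 20.1, 20.2 and 16.5 in HOE8 libraries. WT and HOE1 overlapped (log2 fold change -0.57 ± 0.36, adjusted p = 0.19, called lower without HOE1 library 2), and HOE8 lay above both (3.66 ± 0.25 against WT, adjusted p = 1.7e-07; 4.23 ± 0.27 against HOE1, adjusted p = 1.2e-07). Manes.06G007400, which has the same best match, went from 0.977 ± 0.392 CPM in WT to 6.89 ± 0.0865 in HOE8 (log2 fold change 2.81 ± 0.27). Manes.01G146900 rose in both lines: WT had 2.3 ± 0.0901 CPM, HOE1 4.21 ± 0.983 CPM and HOE8 27.3 ± 1.34 CPM. Of the 19 thaumatin or osmotin genes tested, 4 were higher and 8 lower in HOE1, 9 higher and 7 lower in HOE8, and 10 higher and 6 lower in HOE8 than in HOE1, with medians of -0.40, 0.45 and 0.49 on the log2 scale. The shares called were 63.2%, 84.2% and 84.2%, where 64.4%, 71.9% and 66.5% of all tested genes were called.

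Beta-1,3-glucanases are the PR-2 enzymes. Manes.08G054400, described as beta-1,3-glucanase 3, was read at 127, 131 and 123 CPM in WT, against 17.9, 16.9 and 14.4 in HOE1 and 8.62, 6.28 and 5.57 in HOE8. Log2 fold changes were -2.95 ± 0.12 and -4.21 ± 0.14 (edgeR adjusted p = 7.8e-09 and 3.1e-10). The groups did not overlap, and HOE8 was below HOE1 by a log2 fold change of -1.27 ± 0.14 (adjusted p = 1.1e-05). Manes.14G004900, described as beta-1,3-glucanase 1, was near 1 CPM: it rose in HOE1 (log2 fold change 1.16 ± 0.29, adjusted p = 0.0046) and had a log2 fold change of -0.24 ± 0.36 in HOE8 (adjusted p = 0.57). The third member of the family was too low to test.

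Glucanases belong to glycosyl hydrolase family 17, and 40 further genes carry that description without a word of the rule. Of the 35 tested, 7 were higher and 17 lower in HOE1, where 31.7% and 32.7% of all tested genes were. In HOE8 15 were higher and 12 lower, where 33.7% and 38.2% of all tested genes were. The shares called were 68.6% and 77.1%, where 64.4% and 71.9% of all tested genes were called. Between the lines 17 were higher and 8 lower in HOE8, where 32.7% and 33.8% of all tested genes were. Manes.07G116500, picked from this list after its values were seen, followed the pattern of Manes.08G054400, with 140 ± 5.27 CPM in WT, 21.3 ± 1.66 in HOE1 and 4.4 ± 0.576 in HOE8.

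Chitinases split by class. The 4 genes matching the carrot EP3 chitinase, a class IV enzyme, summed to 398 CPM in WT, 75.7 in HOE1 and 38.8 in HOE8. Manes.11G128300 held 177, 172 and 185 CPM in WT, 21.9, 22.9 and 22.5 in HOE1 libraries and 33.9, 29.7 and 27.2 in HOE8 libraries. Both lines were below WT and HOE8 above HOE1, with log2 fold changes of -2.99 ± 0.08, -2.56 ± 0.08 and 0.43 ± 0.08 (edgeR adjusted p = 3.3e-10, 1.8e-10 and 0.0005).

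Its EP3 relatives on chromosome 11 were lowest in HOE8. Manes.11G130700 held 159, 165 and 165 CPM in WT, against 30.4, 27.7 and 30.1 in HOE1 and 4.99, 4.81 and 4.91 in HOE8. Manes.11G128200 held 40.7, 41.5 and 42.3, then 9.6, 9.71 and 9.63, then 1.13, 0.776 and 0.734 CPM. Neither gene's groups overlapped; against WT they fell by 2.47 ± 0.06 and 2.10 ± 0.09 on the log2 scale in HOE1 and by 5.05 ± 0.07 and 5.55 ± 0.12 in HOE8. Manes.S045100, on a scaffold, had a log2 fold change of -0.08 ± 0.15 in HOE1 (adjusted p = 0.65) and fell by 2.44 ± 0.18 in HOE8. The most read gene described as chitinase A, a class III enzyme in Arabidopsis, followed the same order: Manes.06G155500 went from 55.7 ± 3.14 to 20.6 ± 1.27 and 5.93 ± 0.607 CPM. Manes.14G141000, a glycosyl hydrolase with a chitinase insertion domain, fell to 3.45 ± 0.213 CPM in HOE1 and 4.17 ± 1.51 in HOE8 from 24.5 ± 1.25 CPM in WT.

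Basic chitinase is the class I enzyme known as PR-3. Of its 6 tested genes, 2 were higher in HOE1 and 4 in HOE8, where 31.7% and 33.7% of all tested genes were. In HOE8 3 of them rose by 2-fold or more, where 15.3% of all tested genes did. None was lower in either line, where 32.7% and 38.2% of all tested genes were. Medians were 0.46 and 0.84 on the log2 scale. Manes.S012500, named after its values were seen, went from 8.97 ± 0.616 CPM in WT to 14.6 ± 0.533 in HOE1 and 22.4 ± 3.62 in HOE8. Manes.11G106100, the chitinase with the highest mean FPKM, was read at 266, 283 and 252 CPM in WT, 248, 233 and 254 in HOE1 libraries and 305, 276 and 250 in HOE8 libraries. The groups overlapped, and no comparison was called: log2 fold changes were -0.12 ± 0.08, 0.05 ± 0.08 and 0.18 ± 0.08 with edgeR adjusted p = 0.17, 0.55 and 0.06. The last comparison was called with RLE or upper-quartile scaling, with DESeq2 and without HOE8 library 3. The 14 basic chitinase genes summed to 324, 329 and 372 CPM in WT, HOE1 and HOE8. Manes.05G195100, whose Arabidopsis match CTL1 acts with cellulose synthesis rather than in defence, held 95.1 ± 1.52 CPM in WT, lay at 101.2 to 105.6 CPM in HOE1 (adjusted p = 0.16), and rose to 174 ± 17.6 in HOE8 (log2 fold change 0.87 ± 0.07, adjusted p = 5.7e-07); its HOE1 difference was called, as higher, without HOE8 library 1 and when only HOE1 and WT were fitted. Over the family, 2 of 16 tested chitinases were higher and 8 lower in HOE1, and 5 were higher and 7 lower in HOE8; medians were -0.40 and -0.25. The shares called were 62.5% and 75%, near the 64.4% and 71.9% of all tested genes. The 2 higher in HOE1 became 5 without HOE8 library 1 and when only HOE1 and WT were fitted.

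**Figure D2:**
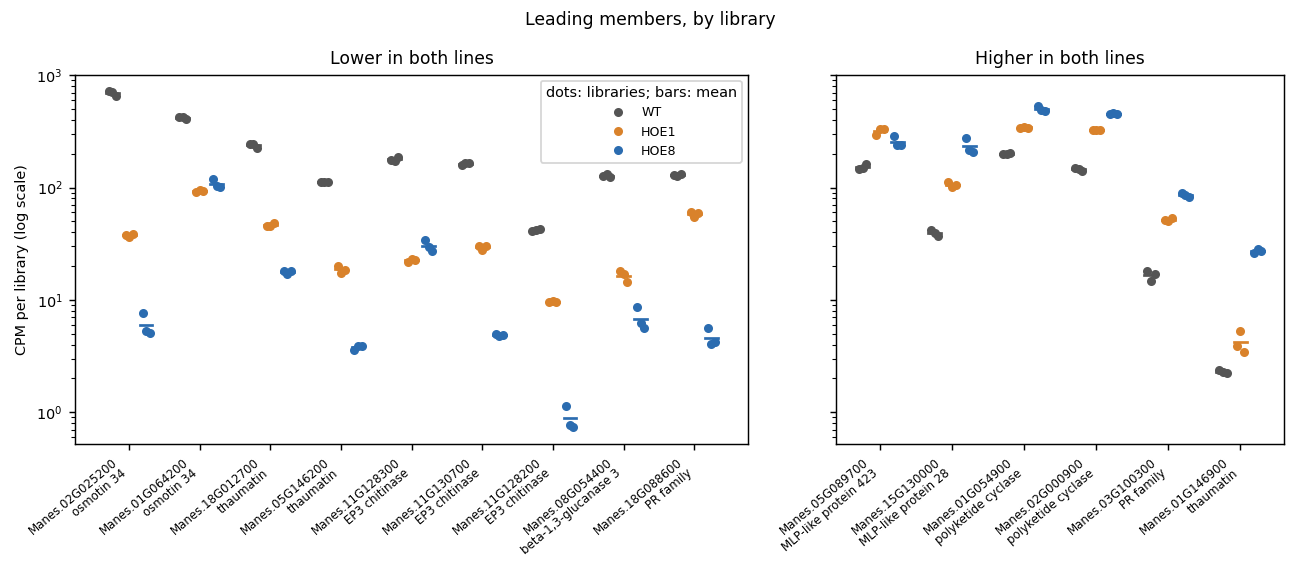
CPM per library (log axis) of 9 members lower in both lines and 6 members higher in both lines than in WT; dots are libraries and bars group means. Manes.02G025200 averages 692 CPM in WT, 37.5 in HOE1 and 5.99 in HOE8, whereas the osmotin Manes.01G064200 and the chitinase Manes.11G128300 are slightly higher in HOE8 than in HOE1.

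PR-4 proteins are small chitin-binding proteins. Their 5 genes summed to 29.8 CPM in WT, 23.9 in HOE1 and 23.4 in HOE8, but single genes went opposite ways. Manes.08G135200 fell from 21 ± 0.839 CPM to 11.7 ± 1.72 and 3.17 ± 0.791, with log2 fold changes of -0.84 ± 0.14 and -2.72 ± 0.16. Its neighbour Manes.08G135100 rose from 5.99 ± 0.692 CPM to 9.21 ± 0.893 and 12.2 ± 1.69, and Manes.09G152300 from 0.586 ± 0.235 to 2.77 ± 0.182 and 7.78 ± 2.37. Manes.08G135300 was read at 1.3, 1.29 and 1.58 CPM in WT, against 0.141, 0 and 0.129 in HOE1 and 0.227, 0 and 0.293 in HOE8. Its fitted log2 fold changes were -3.85 ± 0.60 and -2.93 ± 0.54, resting on 4 reads in HOE1 and 7 in HOE8.

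PR-1-type genes were scarce. Of the 18 CAP or PR-1 genes 5 could be tested. Manes.07G050300, a match of the Arabidopsis basic PR-1, held 2.81, 3.17 and 3.17 CPM in WT, 0.636, 0.262 and 0.194 in HOE1, and no read in HOE8. WT lay at least 40.5-fold above HOE8 and HOE1 at least 4.72-fold above it, taking 3 counts over the HOE8 group as the floor. Manes.07G050400 held 5.97, 6.15 and 5.99 CPM in WT, 1.13, 0.852 and 0.97 in HOE1, and 1 read in all of HOE8, a ratio of 240 to WT (95% counting interval 42.7 to 9505; this interval covers counting error only). In HOE1 the 2 genes fell by 3.07 ± 0.34 and 2.61 ± 0.20 on the log2 scale (edgeR adjusted p = 4.6e-05 and 7.3e-07), and no group overlapped another for either gene.

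Of the CAP genes without the PR-1 name, 3 were tested; 2 were lower in HOE1, and in HOE8 2 were higher and 1 lower. Manes.06G026900 (chromosome 6, 5956488 to 5957283) was read at 1.17, 0.906 and 0.939 CPM in WT, 0.141, 0.328 and 0.194 in HOE1 libraries and 65.7, 52.6 and 56 in HOE8 libraries. HOE1 lay below WT and HOE8 far above both, with log2 fold changes of -2.12 ± 0.32 (edgeR adjusted p = 0.00016), 5.85 ± 0.15 (adjusted p = 5.2e-11) and, between the lines, 7.97 ± 0.19 (adjusted p = 4.7e-11). Manes.06G027000, the next gene of the family on that chromosome, had 0.194 ± 0.0714 CPM in WT and 0.0922 ± 0.109 in HOE1, and rose to 1.59 ± 0.178 in HOE8. Manes.13G133200, the CAP gene with the highest FPKM in WT, fell in both lines, with log2 fold changes of -0.67 ± 0.08 and -0.33 ± 0.08. The family sum of 46.5 ± 1.92 CPM in WT went down to 24.4 ± 0.679 in HOE1 and up to 88.6 ± 9.41 in HOE8. The rise of the sum in HOE8 was that of Manes.06G026900. Of the 5 tested CAP or PR-1 genes 2 were higher and 3 lower in HOE8, with a median log2 fold change of -0.33. Over all tested genes 33.7% were higher and 38.2% lower in HOE8, and 31.7% were higher and 32.7% lower in HOE1.

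Genes described only as pathogenesis-related family proteins showed a pair with opposite courses. Manes.18G088600 was read at 131, 126 and 131 CPM in WT, against 60.5, 54.6 and 59.6 in HOE1 and 5.6, 4.03 and 4.25 in HOE8 (log2 fold changes -1.15 ± 0.08 and -4.80 ± 0.10, edgeR adjusted p = 4.9e-07 and 1.5e-11). Manes.03G100300, with the same best Arabidopsis match, was read at 17.9, 14.7 and 17.1 CPM, then 51.9, 49.9 and 53.7, then 88.9, 86.1 and 82.6 (1.64 ± 0.08 and 2.37 ± 0.08, adjusted p = 1.6e-08 and 2.9e-10). The first was highest in WT and the second highest in HOE8, and neither gene's groups overlapped. The rule's wording also caught Manes.14G158300, a homeodomain transcription factor rather than a PR protein, which rose in HOE1 (log2 fold change 0.54 ± 0.08).

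MLP-like genes went mostly up in HOE1 and in both directions in HOE8. Of the 23 tested, 15 were higher and 3 lower in HOE1 (median log2 fold change 0.99), and 11 were higher and 6 lower in HOE8 (median 0.74). Against HOE1, HOE8 had 6 higher and 7 lower. The shares called were 78.3%, 73.9% and 56.5%, where 64.4%, 71.9% and 66.5% of all tested genes were called. Against WT 65.2% were higher in HOE1 and 47.8% in HOE8, where 31.7% and 33.7% of all tested genes were. Manes.05G089700, an MLP-like protein 423 gene, was read at 146, 150 and 161 CPM in WT, 291, 331 and 332 in HOE1 libraries and 287, 238 and 239 in HOE8 libraries. Every transgenic library was above every WT library, with log2 fold changes of 1.06 ± 0.08 and 0.74 ± 0.08 (edgeR adjusted p = 9.6e-07 and 1e-05), and HOE8 was lower than HOE1 (-0.32 ± 0.08, adjusted p = 0.0051).

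The other MLP-like genes named by the rule had courses of their own. Manes.15G130000, MLP-like protein 28, held 41.8, 39.6 and 37.4 CPM in WT, against 111, 100.8 and 106 in HOE1 and 276, 214 and 209 in HOE8. It rose in steps, by log2 fold changes of 1.42 ± 0.10 and 2.56 ± 0.11 (edgeR adjusted p = 5e-07 and 2.4e-09), and reached 345 ± 55.8 FPKM in HOE8. Manes.18G114800, MLP-like protein 328, went from 0.242 ± 0.159 CPM in WT to 2.95 ± 0.511 in HOE1 (3.61 ± 0.41, adjusted p = 1.9e-05) and 1.5 ± 0.496 in HOE8. The MLP-like gene with the highest FPKM in WT, 321 ± 17.3, did the reverse: Manes.15G008400 was read at 224, 251 and 236 CPM in WT, 96.1, 86 and 115 in HOE1 libraries and 184, 164 and 129 in HOE8 libraries. It fell in both lines, by 1.26 ± 0.13 and 0.58 ± 0.13 on the log2 scale (adjusted p = 8.9e-06 and 0.0019), and no group overlapped another. By name, the 19 MLP-like protein 28 genes summed to 43.1, 115 and 245 CPM in WT, HOE1 and HOE8, and the 21 MLP-like protein 423 genes to 549, 660 and 691 CPM. In WT Manes.15G130000 held 92% of the first sum and Manes.15G008400 43.2% of the second, and 8 of the 19 protein 28 genes had no reads.

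The other polyketide cyclase genes went mostly up as well. Of 17 tested, 11 were higher and 4 lower in HOE1, 12 higher and 4 lower in HOE8, and 10 higher and 5 lower in HOE8 than in HOE1. Median log2 fold changes were 0.78, 1.19 and 0.30. The shares higher were 64.7%, 70.6% and 58.8%, where 31.7%, 33.7% and 32.7% of all tested genes were. The shares lower were 23.5%, 23.5% and 29.4%, where 32.7%, 38.2% and 33.8% of all tested genes were. Manes.01G054900 and Manes.02G000900 share a best Arabidopsis match to a START-type lipid-binding protein. The first held 199, 199 and 202.7 CPM in WT, against 342, 348 and 341 in HOE1 and 531, 488 and 481 in HOE8 (log2 fold changes 0.78 ± 0.05 and 1.32 ± 0.05). The second held 150, 145 and 141, then 323, 323 and 325, then 451, 460 and 447 CPM (1.15 ± 0.04 and 1.64 ± 0.04). Both rose in order from WT over HOE1 to HOE8 without overlap, with edgeR adjusted p of 1.6e-07 or less against WT and of 2e-06 between the lines. Manes.18G037500 went the other way, from 14.5 ± 1.26 CPM in WT to 1.99 ± 0.686 and 1.18 ± 0.326. Manes.17G013400, named after its values were seen because its best match is the Arabidopsis abscisic acid receptor PYR1, rose in both lines: WT had 3.46 ± 0.101 CPM, HOE1 15 ± 0.835 CPM and HOE8 28.3 ± 3.61 CPM (2.11 ± 0.12 and 3.03 ± 0.12, adjusted p = 6.9e-08 and 1.3e-09).

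**Figure D3:**
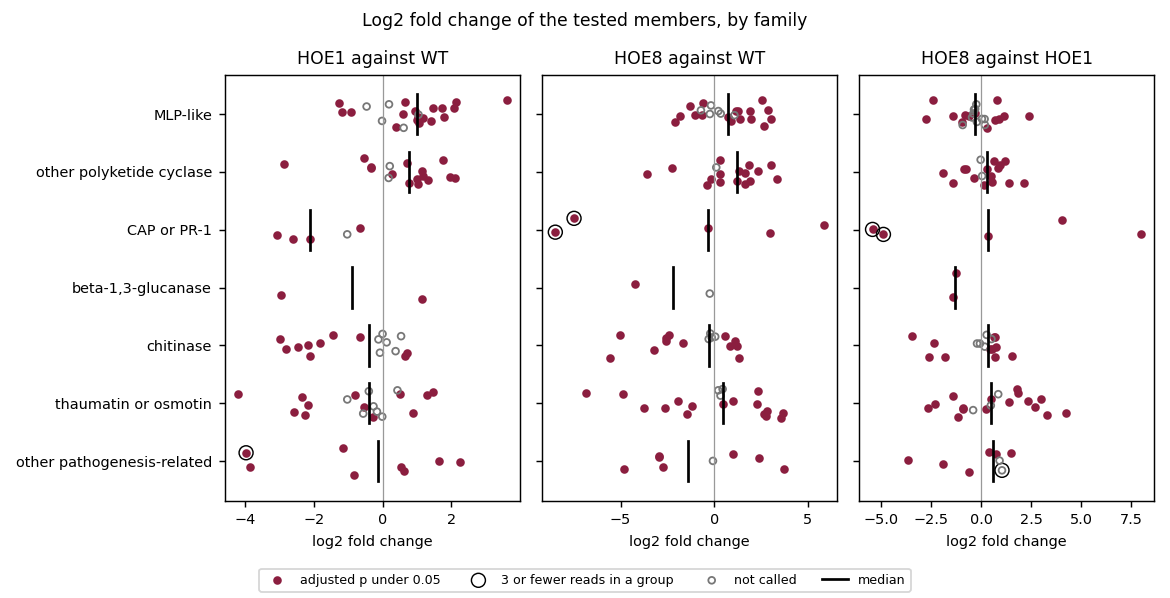
Log2 fold changes (x axis) of the 90 tested members by family, for HOE1 against WT, HOE8 against WT and HOE8 against HOE1; filled dots have an adjusted p under 0.05, black bars are family medians, and ringed dots rest on 3 reads or fewer in a group, so that their fitted position is not a bound. MLP-like and other polyketide cyclase medians lie right of 0 in both lines against WT, at 0.99 and 0.78 in HOE1 and 0.74 and 1.19 in HOE8, and the chitinase median lies left of 0 in both lines against WT and at 0.35 between the lines.

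Of the 90 tested members, 6 were called in opposite directions in the lines, where 9.52% of all tested genes were. Beside Manes.06G026900, the thaumatin-like Manes.11G132100 and the polyketide cyclase Manes.03G168700 were lower in HOE1 and higher in HOE8. Manes.11G132100 was read at 75.1, 68.5 and 68.7 CPM in WT, 40, 40 and 41.6 in HOE1 libraries and 153, 141 and 132 in HOE8 libraries. The MLP-like genes Manes.15G007700, Manes.15G130300 and Manes.15G130400 were higher in HOE1 and lower in HOE8. Manes.15G007700 was read at 14.8, 18.8 and 15 CPM in WT, against 23.9, 24.3 and 24.8 in HOE1 and 5.07, 3.96 and 4.77 in HOE8. For each of the 6 genes all libraries of one line lay above WT and all of the other below it.

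Many members sit side by side. In 14 runs of 3 to 11 members, with neighbouring members at most 100 kb apart, lay 70 of the 170 genes. Neighbours of one family can be alike in sequence, so reads may have been divided between copies, and their separate values are less certain than their sums. The longest run, 11 MLP-like and polyketide cyclase genes on chromosome 15 (9857685 to 9930715), summed to 105, 100.5 and 102.1 CPM in WT, 221, 201.2 and 212 in HOE1 libraries and 362, 279 and 272 in HOE8 libraries. Most of the rise in both lines was that of Manes.15G130000, which held 38.6% of the run's WT sum. Of the run's 8 tested genes 7 were higher and 0 lower in HOE1, and 5 were higher and 2 lower in HOE8. The shares over all tested genes were 31.7% higher and 32.7% lower in HOE1, and 33.7% and 38.2% in HOE8. Manes.15G130600 at its end had no WT read, 8 reads in HOE1 and 26 in HOE8, at least 2.8-fold and at least 10.3-fold above WT with 3 counts over the WT group as the floor.

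The run of 9 MLP-like protein 423 genes at the other end of chromosome 15 (755165 to 803137) went down in sum, from 280 CPM in WT to 151 in HOE1 and 186 in HOE8. Manes.15G008400 held 84.7% of the WT sum and fell in both lines; the other 8 genes summed to 42.8 ± 2.06 CPM in WT, 51.7 ± 0.584 in HOE1 and 27.1 ± 2.96 in HOE8. Of its 7 tested genes 2 were higher and 2 lower in HOE1, and 0 higher and 3 lower in HOE8. Among all tested genes 31.7% were higher and 32.7% lower in HOE1, and 33.7% and 38.2% in HOE8. A run of 7 MLP-like protein 28 genes on chromosome 17 (21945366 to 22004261) had no WT read at all and none could be tested; Manes.17G079800 there had 13 reads in HOE1 and 32 in HOE8. In the run of 6 PR-1-type genes on chromosome 7 (5201765 to 5284737) nearly all reads came from the 2 genes described above. Direction was shared within some runs and mixed in others, including the PR-4 run on chromosome 8, where 1 of 4 genes rose and 3 fell in each line.

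**Figure D4:**
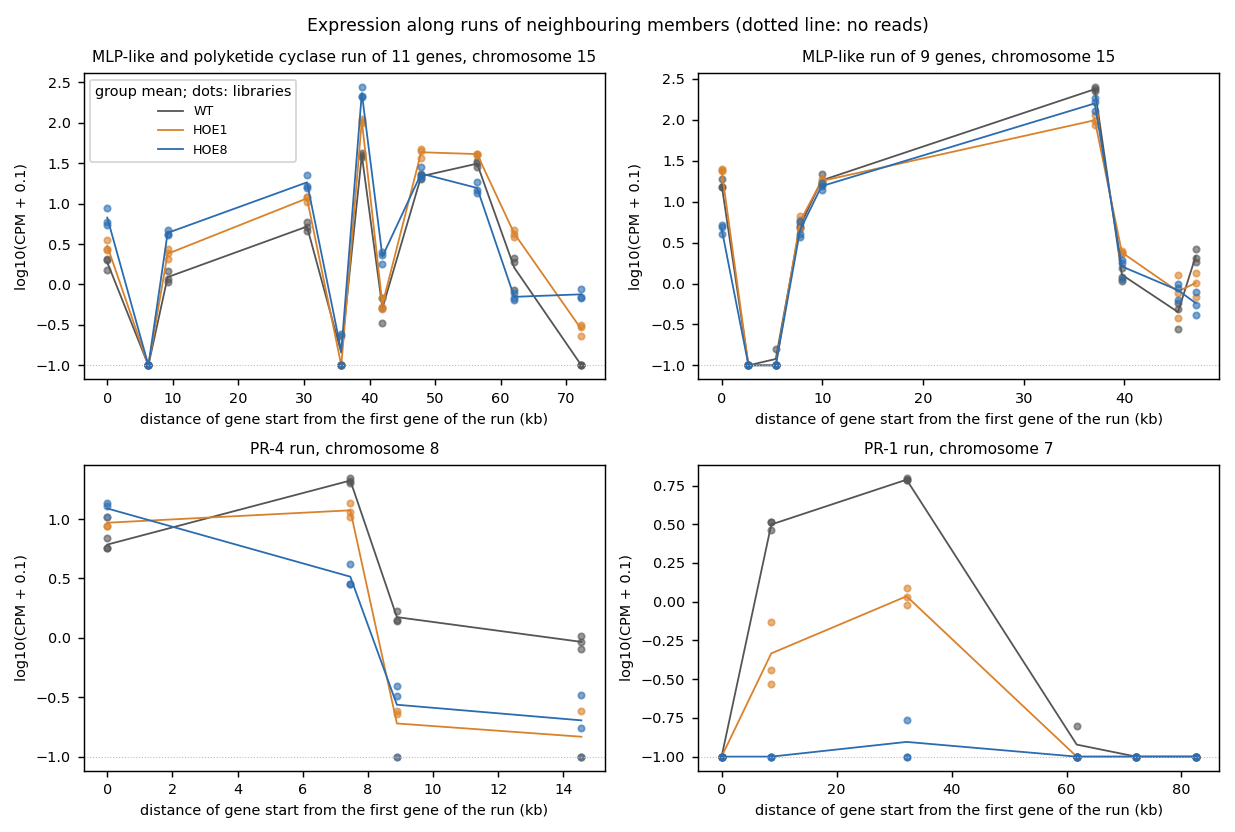
log10(CPM + 0.1) of each gene along 4 runs of neighbouring members against the distance of its start from the first gene of the run (kb); dots are libraries, lines join group means, and the dotted line marks no reads. Most genes of the 11-gene run on chromosome 15 lie higher in HOE1 and HOE8 than in WT, whereas the PR-1 run on chromosome 7 falls to the dotted line in HOE8.

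Regulators of salicylate, immune and ethylene signalling, which act upstream of several PR genes in Arabidopsis, were followed as a list of 51 genes. Of the 45 tested, 15 were higher and 14 lower in HOE1, or 33.3% and 31.1% where 31.7% and 32.7% of all tested genes were. In HOE8 6 were higher and 31 lower, or 13.3% and 68.9% where 33.7% and 38.2% of all tested genes were. The list holds 8 matches of the ethylene signalling factors ERF1 and EIN3, of which 7 were tested: 4 of them were lower in HOE1 and 7 in HOE8, and none was higher in either line. The 38 other tested genes had 15 higher and 10 lower in HOE1, and 6 higher and 24 lower in HOE8. Against HOE1, HOE8 had 7 of the 45 higher and 29 lower, and the medians were 0.05, -0.71 and -0.64 on the log2 scale, where the medians over all tested genes were -0.00, -0.05 and -0.01. The factors that switch on salicylate synthesis went opposite ways in the lines. The CBP60g match Manes.08G112800 had 37.9 ± 1.9 CPM in WT, 108 ± 5.53 in HOE1 and 5.62 ± 0.741 in HOE8, and the SARD1 match Manes.S034100 had 62.4 ± 1.92, 163 ± 0.502 and 12.9 ± 0.604 CPM. Both were called higher in HOE1 and lower in HOE8. The second SARD1 match Manes.01G014500 did the same, with 25 ± 0.826, 80.3 ± 1.86 and 11 ± 1.02 CPM.

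Other steps of the pathway had other courses. The matches of PAD4, a lipase-like partner of EDS1, fell in both lines: Manes.12G147100 had 133 ± 2.87, 73.3 ± 0.517 and 21.9 ± 1.72 CPM, and Manes.12G159500 had 128 ± 10, 54.4 ± 15.9 and 18.9 ± 4.37 CPM. The isochorismate synthase (ICS2) match Manes.14G075200, for the enzyme that starts salicylate synthesis, rose from 11.5 ± 1.28 CPM to 30.7 ± 0.953 and 44.8 ± 1.77. The match of the salicylate receptor NPR1, Manes.16G100600, had 17 ± 1.3 CPM in WT, 16.3 ± 0.519 in HOE1 (edgeR adjusted p = 0.56) and fell to 6.93 ± 0.532 in HOE8 (adjusted p = 3.8e-07). Manes.18G071300, the match of the pipecolate-pathway enzyme ALD1, had 3.73 ± 0.491 CPM in WT, 6.48 ± 0.245 CPM in HOE1 and no read in HOE8, a group that lay at least 49.5-fold below WT. In HOE1 the 3 tested osmotin 34 genes, the glucanase Manes.08G054400 and 3 of the 4 EP3 chitinase genes were called lower than in WT, while the CBP60g match and both SARD1 matches were called higher. In HOE8 all of these genes were called lower. Further genes had other courses. Both EDS1 matches were called lower in each line, and all WRKY70 matches were called higher in HOE1 with mixed calls in HOE8. None of the tested basic chitinase genes was called lower in either line. Whether these regulators and the PR genes are linked here was not tested.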

How the data were processed

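Leaf RNA of 9 libraries was sequenced. Per the submitters' processing notes the tools were HISAT2 2.0.4 and StringTie 1.3.0; no source used here names the genome build. The authors deposited whole-number read counts per gene and, beside them, FPKM values, which equal count over gene length over library total to within 0.00438% for 22850 genes with at least 20 counts. The members, lists and named genes were chosen with earlier results of these data known. Named genes are, among called members with separate libraries and at least 1 CPM in a group, the 10 with the largest change per comparison; the 2 with the highest FPKM per family; those called in opposite directions (at most 8); and the 3 longest runs; genes outside this rule are examples of a group or list.

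Counts were fitted with edgeR 4.0.16 (TMM scaling, filterByExpr with a minimum count of 10, quasi-likelihood F test, two-sided) on all 9 libraries, and p-values were adjusted over the 23434 genes kept. CPM uses TMM-scaled totals; FPKM served for levels between genes. Tested on simulated data for HOE1 against WT over 22581 genes, the fit called 43.3% of 67 genes changed 1.5-fold, 88.1% of 67 changed 2-fold and 97% of 66 changed 4-fold, with 15 false calls. The changed genes were drawn from those averaging above 2 CPM, so these shares do not describe lower genes. Far fewer genes were changed than were called in the data. Alternatives were RLE and upper-quartile scaling, no count filter, DESeq2 1.42.0, fitting only the groups compared, replicate number as a block, and leaving out each library. Best Arabidopsis matches come from the deposited table.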

Additional observations from a re-analysis of the deposited data

Results flagged for a closer look

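Members called in opposite directions in HOE1 and HOE8 against WT were looked at again, by the edgeR difference between the lines. Manes.06G026900, a CAP gene, was lower than WT in HOE1 and higher in HOE8, and the log2 fold change of HOE8 against HOE1 was 7.97. Its HOE1 libraries lay near the floor of 3 counts. Manes.11G132100, a thaumatin-like gene, and Manes.03G168700, a polyketide cyclase gene, had the same directions, with differences between the lines of 1.81 and 0.82. Manes.15G130400, Manes.15G007700 and Manes.15G130300, MLP-like genes on chromosome 15, were higher in HOE1 and lower in HOE8, with differences of -2.78, -2.40 and -1.40. Manes.15G130400 rested on 70 reads in WT, 188 in HOE1 and 24 in HOE8.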

How the results depend on the processing

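Counts of members called higher and lower, over 15 alternatives, stayed within 1.5 times of the reported ones. Leaving out each library in turn gave 35 to 40 higher and 31 to 33 lower in HOE1 against WT, 42 to 42 and 31 to 33 in HOE8 against WT, and 35 to 40 and 26 to 31 in HOE8 against HOE1; the other settings gave 37 to 42 and 32 to 32, 42 to 50 and 31 to 35, and 37 to 44 and 27 to 32. Without HOE8 library 1 the counts were 42 and 32 against WT and 35 and 31 against HOE1, and no called member changed sign. Family counts moved by more than 1.5 times in 4 cases: chitinases higher in HOE1 from 2 to 5, both when only these groups were fitted and without HOE8 library 1; a glucanase higher in HOE8 than WT, and in HOE8 than HOE1, from 0 to 1 without the count filter; and CAP genes lower in HOE8 than HOE1 from 2 to 1 when only these groups were fitted. Smaller moves included MLP-like genes higher in HOE8, from 11 to as many as 15. The cause was not tested. Of the named genes' fits under the alternatives, 1981 kept direction and call, 25 lost a call, 12 gained one and none reversed. The lost calls were of Manes.15G129500 in HOE1 against WT and of Manes.15G008500, Manes.18G037500 and Manes.18G114800 in HOE8 against HOE1. With replicate number as a block the counts were 37 and 32, 42 and 32, and 39 and 27. The numbers did not pair the libraries: correlations of same-numbered libraries' deviations lay between -0.04 and 0.03, and 4 of 9 libraries correlated best with their own number. Genes under about 0.2 CPM lie at the floor of 3 counts.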

Other observations

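Manes.08G136300, the gene matching linker histone H1.2 that was far higher in both lines, lies 75.7 kb beyond the run of 4 PR-4 genes on chromosome 8. It overlaps another annotated gene, and reads of the transgene and of the resident gene cannot be told apart in these counts. The 4 matches of the LysM receptor kinase CERK1, the chitin receptor of Arabidopsis, are part of the signalling list above. All 4 were called lower in HOE8 by edgeR, where 38.2% of all tested genes were. In HOE1 1 was higher, 1 lower and 2 were not called, where 31.7% of all tested genes were higher and 32.7% lower. The most read, Manes.12G071800, had log2 fold changes of 0.09 (adjusted p = 0.27) and -1.25 (adjusted p = 5.2e-08), and the least read, Manes.13G134800, had 1.99 CPM in WT, 0.224 CPM in HOE1 and no read in HOE8.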
